A study of Mus musculus with 6 samples.

Results

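Genes that mark the ventral forebrain (striatum, septum and basal forebrain) were followed in a transcriptome of embryonic mouse cerebral cortex in which Cap1, the gene of an actin regulator, was targeted by Nestin-Cre. The set holds 31 genes of 27179 in the table, chosen by symbol as genes of striatal projection neurons, septal neurons, forebrain cholinergic neurons and the transcription factors that pattern the ventral telencephalon. RNA from cortices of C57BL/6N embryos at E18.5 was sequenced. The CAP1-KO group (genotype Cap1flx/flx,Nestin-CRE; libraries FCRE3, FCRE4 and FCRE5) carried floxed Cap1 alleles and a Cre transgene driven by the Nestin promoter (expressed by progenitors of neurons and glia), and the Control group (genotype Cap1 flx/flx; libraries FF1, FF2 and FF4) carried the floxed alleles without Cre. No group carried Cre without floxed alleles, so effects of the transgene and of CAP1 loss cannot be told apart. The design asks how the loss of CAP1 changes gene expression in neurons.

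The ventral telencephalon lies beneath the cortex and makes the striatum, the pallidum, the septum and most forebrain neurons that use GABA or acetylcholine. Striatal projection neurons form a direct pathway, known for the dopamine receptor Drd1 and the neuropeptide gene Tac1, and an indirect pathway, known for Drd2, Adora2a and Penk. Cells of the cortex itself express some of these genes as well, and some, such as Gbx2 and the Zic genes, are also known in other tissue. The set is therefore not a measure of ventral tissue alone.

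The CAP1-KO label held in the data: Cap1 measured 86.6, 85.9 and 82.9 CPM (reads scaled to a common library size) in FCRE3, FCRE4 and FCRE5, against 194, 193 and 166 CPM in FF1, FF2 and FF4 (log2 fold change -1.10, SE 0.07, limma, Benjamini-Hochberg adjusted p = 0.000283). Recovered depth was 33509504 to 36302598 reads in CAP1-KO and 32443864 to 35229159 reads in Control. Nothing in the labels besides the replicate wording says that the libraries came from separate animals, and with 3 libraries against 3 an exact permutation test cannot give a p below 0.1. The labelled tissue showed its markers: 14 dorsal pallium (cortical) genes such as Neurod6 were present in every library. Their summed level was 2417, 2381 and 2573 CPM in CAP1-KO, against 3671 CPM in FF1, 3758 CPM in FF2 and 2346 CPM in FF4. Sex was unbalanced: Xist was high in the CAP1-KO libraries and FF2 (2296 CPM or more) and near 0 in FF1 and FF4.

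All 31 symbols were found, but the row with the symbol Lhx8 had 0 reads in every library and a gene number, 100217425, that RefSeq gives to the small nucleolar RNA gene Snord45c. The gene number of Lhx8, 16875, stood beside the symbol Tnni3k, with an Ensembl number that GENCODE also gives to Lhx8. Lhx8 is therefore given here from gene number 16875. The other 30 symbols were those of RefSeq for their gene numbers. Of the 31 genes, 29 had a mean of at least 1 CPM and were tested, and Chat and Gsx1 lay under that level.

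For most of the set, the Control library FF4 stood nearer to the CAP1-KO libraries than to FF1 and FF2. Of the 29 tested genes, 26 were higher in FF4 than in both FF1 and FF2 (34.7% of all tested genes), and 18 were at least 2-fold above the higher of FF1 and FF2 (1.56% of all tested genes). Those 18 ratios ran from 2.14 for Rxrg to 12.6 for Lhx8. Every CAP1-KO library was likewise at least 2-fold above the higher of FF1 and FF2 for 12 of the 29 (0.979% of all tested genes). FF4 lay within the CAP1-KO range for 12 genes, above every CAP1-KO library for 14 and below every CAP1-KO library for 3 (44.1%, 27.9% and 28% of all tested genes).

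**Figure D1:**
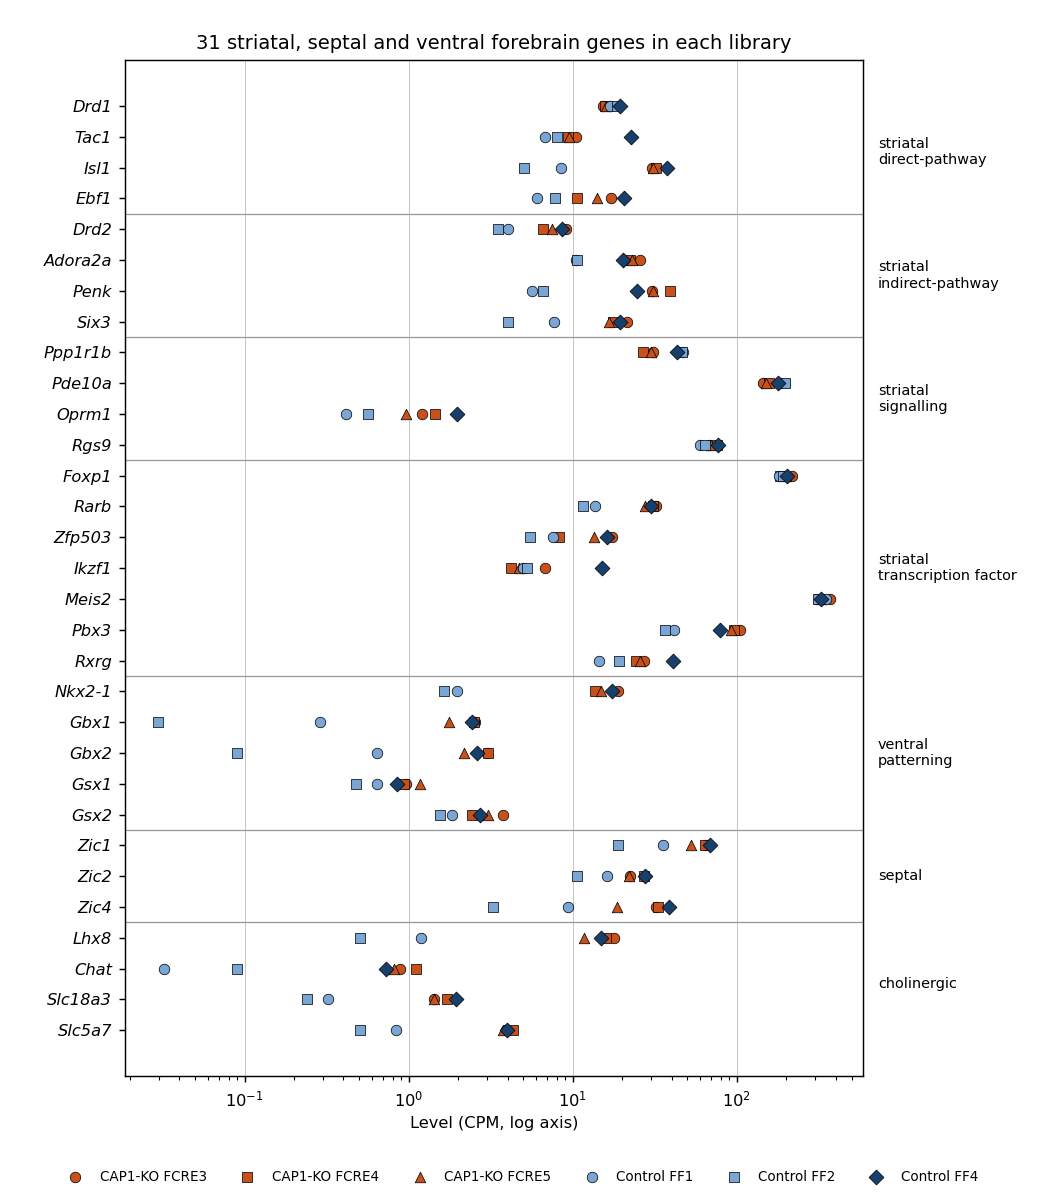
Level of each of the 31 genes (rows, grouped by role) in each library, in CPM on a log axis; orange marks are CAP1-KO libraries, light blue marks FF1 and FF2, dark blue diamonds FF4. For most genes FF1 and FF2 stand to the left and FF4 stands with the CAP1-KO libraries, while Ppp1r1b, Pde10a and Drd1 are lower in CAP1-KO than in every Control library.

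Against the 3 Control libraries together, 1 gene of the set changed. Ppp1r1b fell (0.403% of all tested genes fell), and 0 rose (0.562% of all tested genes rose; limma, Benjamini-Hochberg adjusted p under 0.05). At an unadjusted p under 0.05, 10 were higher and 3 lower, against 7.74% and 15.3% of all tested genes. A log2 fold change above 0 was found for 24 of the 29 genes (48.3% of all tested genes). The median log2 fold change was 0.52 over the 29 genes and -0.01 over all 13885 tested genes. These counts turned on FF4: without it 23 genes of the set rose and 2 fell (9.36% and 18.9% of all tested genes), and with FF4 as the only Control library 0 rose and 1 fell, which was Tac1 (0.31% and 0.0864% of all tested genes). The median over the set was 0.90 without FF4 and -0.15 against FF4 alone. In the fit against FF4 alone the lone library was assumed to vary like the other group.

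**Figure D2:**
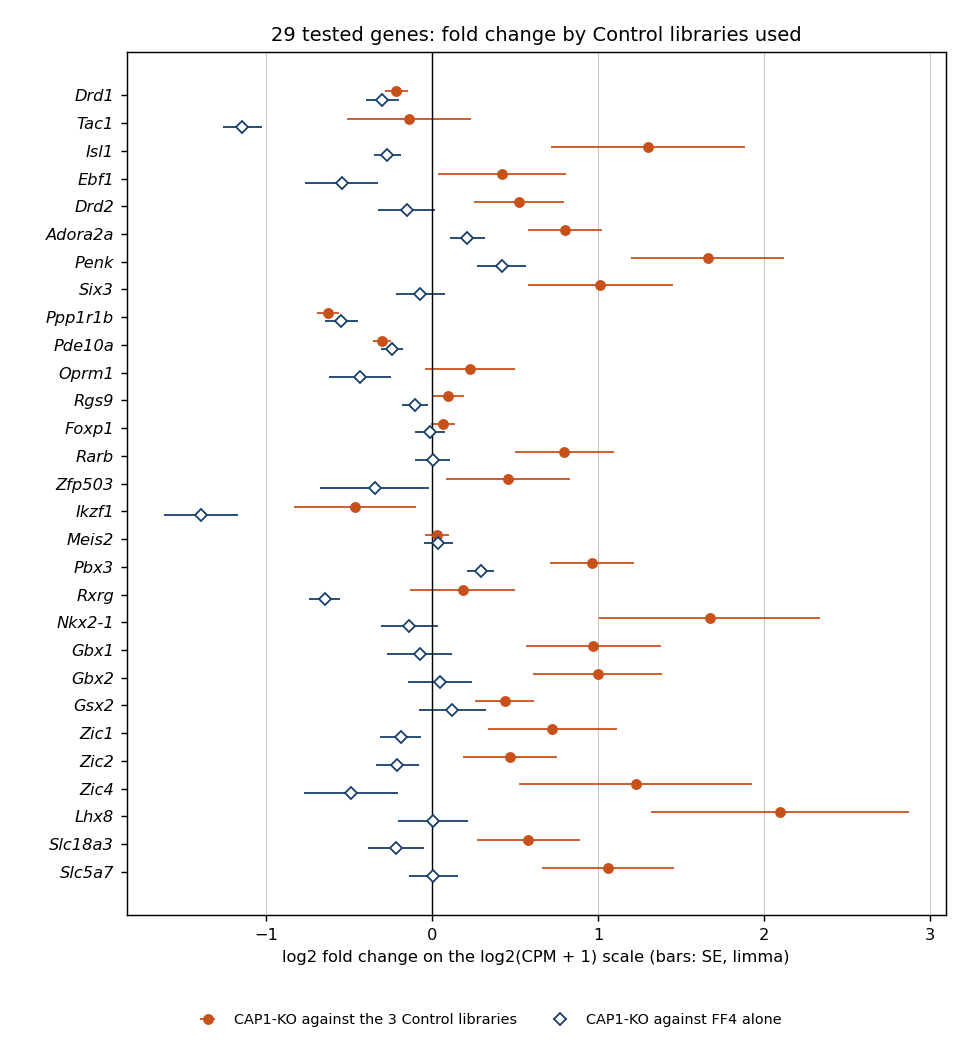
log2 fold change of the 29 tested genes on the log2(CPM + 1) scale, CAP1-KO against the 3 Control libraries (orange circles) and against FF4 alone (open blue diamonds), with limma's SE as bars. The orange values of most genes lie above 0 with wide bars, the blue values of 15 of those genes lie below 0, and Ppp1r1b, Pde10a, Drd1, Tac1 and Ikzf1 lie below 0 in both.

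Ppp1r1b encodes a phosphoprotein through which striatal and deep cortical neurons relay dopamine and cAMP signals. It measured 30.7, 26.7 and 29.8 CPM in CAP1-KO, against 46.9, 46.4 and 42.9 CPM in FF1, FF2 and FF4. The groups did not overlap, and FF4 was close to the other Control libraries. Ppp1r1b (gene number 19049, GRCm38 chromosome 11, 98348406 to 98357796) was at 64.0% of the Control level (log2 fold change -0.63, SE 0.07, limma adjusted p = 0.00689). The call held in 10 of 14 alternatives. The adjusted p was 0.0535 without FF1, 0.0528 without FCRE5, 0.119 once Xist entered as a covariate and 0.136 against FF4 alone, and the log2 fold change ran from -0.67 to -0.55. In the authors' deposited table its log2 fold change is -0.64, with an FDR of 0.0016. In bulk tissue, fewer cells of a type and less RNA per cell cannot be told apart.

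Pde10a, a phosphodiesterase that degrades cyclic nucleotides in striatal neurons, measured 144, 158 and 151 CPM in CAP1-KO libraries, against 184, 196 and 178 CPM in FF1, FF2 and FF4. Its groups did not overlap either. The log2 fold change was -0.30 (SE 0.06), the limma adjusted p was 0.0585, and the call was reached without FF4 only. The authors' deposited table gives an FDR of 0.0497 for it. Drd1, the dopamine receptor of the direct pathway, was the other gene with every CAP1-KO library below every Control library, at 15.2, 15.7 and 15.9 CPM in CAP1-KO and 16.9, 18.6 and 19.4 CPM in Control (log2 fold change -0.22, limma adjusted p = 0.139). Non-overlap in that direction was found in 3 of the 29 genes and in 14.6% of all tested genes. The remaining signalling genes were Rgs9, a regulator of G protein signalling, at 68.0 to 75.7 CPM in CAP1-KO and 59.8 to 76.3 CPM in Control, and Oprm1, the mu opioid receptor, at 0.96 to 1.44 CPM in CAP1-KO and 0.42 to 1.96 CPM in Control. FF4 held the highest level of both.

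Of the direct-pathway genes, Tac1 was the one that passed the test against FF4 alone. Tac1, which encodes the precursor of substance P, measured 10.5, 9.36 and 9.47 CPM in CAP1-KO, against 6.80 CPM in FF1, 7.98 CPM in FF2 and 22.8 CPM in FF4. The CAP1-KO libraries were slightly above FF1 and FF2 and well below FF4, at 0.429 of its level on average. Against the 3 Control libraries its log2 fold change was -0.14 (SE 0.37, limma adjusted p = 0.853). Against FF4 alone it was -1.14 (SE 0.12, limma adjusted p = 0.00824), and without FF4 it was 0.36 (limma adjusted p = 0.0265). Isl1, a LIM homeobox factor of direct-pathway and cholinergic neurons, measured 30.2, 32.2 and 30.8 CPM in CAP1-KO, against 8.43, 5.06 and 37.7 CPM in FF1, FF2 and FF4. Ebf1, a transcription factor of direct-pathway neurons, measured 17.2, 10.7 and 14.0 CPM in CAP1-KO, against 6.06, 7.74 and 20.4 CPM in FF1, FF2 and FF4. All 3 CAP1-KO libraries lay between FF4 and the other Control libraries for both genes, and neither passed the test (limma adjusted p = 0.233 for Isl1 and 0.549 for Ebf1). Each of the 4 direct-pathway genes, Drd1 included, was lower in every CAP1-KO library than in FF4. That held for 14 of the 29 tested genes of the set, the 3 septal genes among them, and for 27.9% of all tested genes.

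Among the indirect-pathway genes, Penk and Adora2a were above FF4 in every CAP1-KO library. Penk, the enkephalin precursor, measured 30.3, 39.4 and 30.8 CPM in CAP1-KO, against 5.61, 6.55 and 24.6 CPM in FF1, FF2 and FF4. Adora2a, an adenosine receptor gene of indirect-pathway neurons, measured 25.5, 22.3 and 22.9 CPM in CAP1-KO, against 10.5, 10.5 and 20.2 CPM in FF1, FF2 and FF4. Every CAP1-KO library was above every Control library for both, as for Pbx3, a TALE homeobox factor (104, 96.1 and 91.8 CPM in CAP1-KO against 41.6, 36.4 and 79.3 CPM in FF1, FF2 and FF4). That was 3 of 29 genes of the set and 11.1% of all tested genes. The tests did not pass: the log2 fold change was 1.66 for Penk (SE 0.46, limma adjusted p = 0.111), 0.80 for Adora2a (SE 0.22, limma adjusted p = 0.111) and 0.96 for Pbx3 (SE 0.25, limma adjusted p = 0.105). Against FF4 alone these values were 0.42, 0.21 and 0.29. Drd2, the dopamine receptor of the indirect pathway, measured 9.03, 6.59 and 7.46 CPM in CAP1-KO, against 4.01, 3.51 and 8.61 CPM in FF1, FF2 and FF4. Six3, a homeobox factor needed for indirect-pathway neurons in mice, measured 21.5, 17.6 and 16.6 CPM in CAP1-KO, against 7.69, 4.02 and 19.4 CPM in FF1, FF2 and FF4. FF4 lay inside the CAP1-KO range for Drd2 and Six3.

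Set against each other within a library, the 4 genes chosen for each pathway separated the groups with FF4 on the Control side. Ikzf1, linked to enkephalin-positive striatal neurons in mice, was not among these genes and averaged 0.346 of FF4 in CAP1-KO. The mean log2(CPM + 1) of the 4 indirect-pathway genes minus that of the 4 direct-pathway genes was 0.21, 0.25 and 0.11 in FCRE3, FCRE4 and FCRE5, against -0.37, -0.56 and -0.48 in FF1, FF2 and FF4. The mean was 0.19 ± 0.07 in CAP1-KO and -0.47 ± 0.09 in Control (SD, n = 3 each). This is a description with no test, since the genes were chosen with earlier results of these data known. The difference was not spread evenly over the genes: Penk was above and Tac1 below FF4 in every CAP1-KO library, while FF4 lay inside the CAP1-KO range for Drd2 and Six3.

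**Figure D3:**
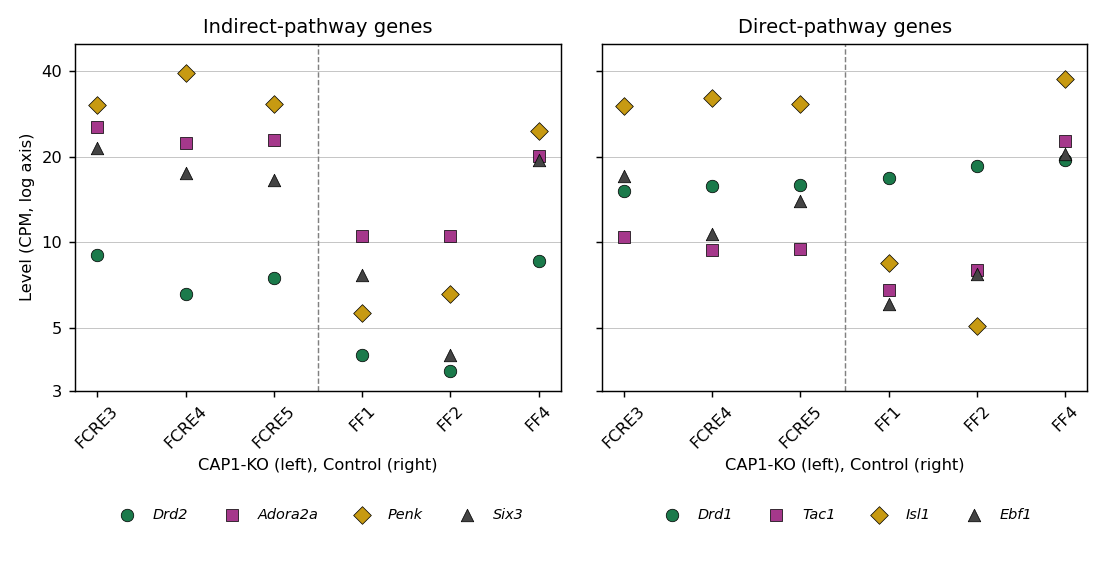
Level (CPM, log axis) of 4 indirect-pathway genes (left panel) and 4 direct-pathway genes (right panel) in each library, CAP1-KO left of the dashed line and Control right of it. Penk and Adora2a are higher in every CAP1-KO library than in FF4, whereas all 4 direct-pathway genes are lower in every CAP1-KO library than in FF4.

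The promoter of Tac1 is shown because Tac1 was the gene that passed against FF4 alone. Promoters here are the 300 bases from 250 before to 50 after a RefSeq start on GRCm38.p6, written 5′ to 3′ on the gene's strand, and capitals mark a motif that was found. Tac1 lies on the plus strand and its promoter spans chr6:7554811-7555110.
Tac1: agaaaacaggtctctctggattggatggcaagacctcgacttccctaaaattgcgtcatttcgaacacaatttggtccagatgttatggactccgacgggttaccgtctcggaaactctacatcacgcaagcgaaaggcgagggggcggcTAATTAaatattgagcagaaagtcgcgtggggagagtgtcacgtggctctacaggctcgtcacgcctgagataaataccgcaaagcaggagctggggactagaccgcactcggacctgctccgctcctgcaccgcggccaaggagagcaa
The capitals are TAATTA, the core recognised by many homeodomain factors. The 25 genes of the set with a listed promoter had 34 promoters. TAATTA was present in 2 of these (of Tac1 and Foxp1) and in 5.29% of all 32851 listed promoters. The CArG box, the binding motif of SRF, a transcription factor named in the study's title, was found in 0 of the 34 promoters of those 25 genes and in 1.63% of all listed promoters. Matches were sought on both strands and are descriptions of the sequence.

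The striatal transcription factors divided into those also abundant in FF1 and FF2 and those that were not. Foxp1, a forkhead factor of striatum and cortex, measured 217, 184 and 199 CPM in CAP1-KO, against 181, 190.1 and 201 CPM in FF1, FF2 and FF4. Meis2, a TALE homeobox factor of the lateral ganglionic eminence, measured 368, 317 and 327 CPM in CAP1-KO, against 349, 312 and 328 CPM in Control. The groups overlapped for both genes, with log2 fold changes of 0.07 and 0.03. Rarb, a retinoic acid receptor, measured 32.4, 30.8 and 27.4 CPM in CAP1-KO, against 13.7, 11.6 and 30.1 CPM in FF1, FF2 and FF4. Zfp503, a zinc finger gene of striatal development, measured 17.4, 8.25 and 13.5 CPM in CAP1-KO, against 7.57, 5.48 and 16.2 CPM in FF1, FF2 and FF4. For these genes FF4 lay inside the CAP1-KO range, and the limma adjusted p was 0.171 for Rarb and 0.499 for Zfp503.

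Ikzf1 and Rxrg, like Tac1, were higher in FF4 than in any other library. Ikzf1, a zinc finger factor linked to enkephalin-positive striatal neurons in mice and also active in blood and immune cells, measured 6.73, 4.18 and 4.69 CPM in CAP1-KO, against 4.94, 5.27 and 15.05 CPM in FF1, FF2 and FF4. The CAP1-KO libraries spanned the levels of FF1 and FF2 and averaged 0.346 of FF4. The summed level of 9 microglia and macrophage genes was 77.5, 89.1 and 95.6 CPM in CAP1-KO, against 58.3, 53.1 and 66.3 CPM in FF1, FF2 and FF4, and the part of such cells in the Ikzf1 level was not tested. Rxrg, a retinoid X receptor, measured 27.2, 24.3 and 25.8 CPM in CAP1-KO, against 14.5, 19.1 and 40.8 CPM in FF1, FF2 and FF4. Against FF4 alone the log2 fold changes were -1.39 for Ikzf1 (SE 0.22, limma adjusted p = 0.0792) and -0.65 for Rxrg (SE 0.09, limma adjusted p = 0.0513), and neither passed.

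Of the genes that pattern the ventral telencephalon, Nkx2-1, Gbx1 and Gbx2 were several-fold higher in FF4 than in FF1 and FF2. Nkx2-1, the homeobox gene of the medial ganglionic eminence, measured 19.0, 13.7 and 14.7 CPM in CAP1-KO, against 1.96, 1.64 and 17.3 CPM in FF1, FF2 and FF4. FF4 was 8.85 times FF1 and inside the CAP1-KO range. The log2 fold change was 1.67 (SE 0.67, limma adjusted p = 0.189) against the 3 Control libraries and -0.14 against FF4 alone. Gbx1, a homeobox gene of basal forebrain neurons, had 95, 90 and 60 reads in CAP1-KO, against 9, 1 and 80 reads in FF1, FF2 and FF4. Gbx2, its paralog, known in thalamus and in cholinergic interneurons, measured 3.00, 3.05 and 2.16 CPM in CAP1-KO, against 0.64, 0.09 and 2.60 CPM in FF1, FF2 and FF4. FF2 held 1 read of Gbx1 and 3 reads of Gbx2, and FF4 was inside the CAP1-KO range for both. Gsx2 and Gsx1, which specify progenitors of the lateral ganglionic eminence, varied less, at 2.44 to 3.75 CPM in CAP1-KO and 1.55 to 2.72 CPM in Control for Gsx2, and at 0.94 to 1.17 CPM in CAP1-KO and 0.48 to 0.85 CPM in Control for Gsx1. For Gsx2 the log2 fold change was 0.44 (SE 0.18, limma adjusted p = 0.197).

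The septal genes Zic1, Zic2 and Zic4, zinc finger factors of the dorsal and septal midline, were highest in FF4. Zic4 measured 32.2, 32.9 and 18.7 CPM in CAP1-KO, against 9.33, 3.28 and 38.4 CPM in FF1, FF2 and FF4. Zic1 measured 65.1, 63.5 and 52.2 CPM in CAP1-KO, against 35.6, 18.8 and 68.5 CPM in FF1, FF2 and FF4. Zic2 measured 22.4, 27.0 and 22.1 CPM in CAP1-KO, against 16.1, 10.7 and 27.6 CPM in FF1, FF2 and FF4. For all 3 genes FF2 was below FF1, and none passed the test (limma adjusted p = 0.304 for Zic1, 0.360 for Zic2 and 0.334 for Zic4). Zic1 and Zic4 overlap by 138 bases on opposite strands, and whether the counting used strand is not given in the sources used here. Zic genes are also expressed in the meninges. The summed level of 9 meningeal fibroblast genes was 14.2, 85.4 and 74.2 CPM in FCRE3, FCRE4 and FCRE5, against 13.7, 12.9 and 13.8 CPM in FF1, FF2 and FF4, and their part in the Zic levels was not tested.

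The cholinergic genes of the set were low in FF1 and FF2 and several-fold higher in FF4 and in CAP1-KO. Lhx8, the LIM homeobox factor that specifies forebrain cholinergic neurons, measured 17.9, 16.0 and 11.6 CPM in CAP1-KO, against 1.19, 0.51 and 14.9 CPM in FF1, FF2 and FF4. Slc5a7, the choline transporter, measured 3.91, 4.32 and 3.73 CPM in CAP1-KO, against 0.83, 0.51 and 3.96 CPM in FF1, FF2 and FF4. Slc18a3, the vesicular acetylcholine transporter, measured 1.42, 1.72 and 1.43 CPM in CAP1-KO, against 0.32, 0.24 and 1.93 CPM in FF1, FF2 and FF4. FF4 stood inside or above the CAP1-KO range for these 3 genes. Their log2 fold changes were 2.09 for Lhx8 (SE 0.78, limma adjusted p = 0.167), 1.06 for Slc5a7 (SE 0.40, limma adjusted p = 0.170) and 0.58 for Slc18a3 (SE 0.31, limma adjusted p = 0.307). Against FF4 alone they were 0.00, 0.01 and -0.22. Chat, the enzyme that makes acetylcholine, had 33, 40 and 28 reads in CAP1-KO, against 1, 3 and 24 reads in FF1, FF2 and FF4. Slc18a3 lies inside Chat on the same strand, so how reads of the pair were divided is uncertain.

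The promoters of the 3 genes for making, packing and taking up the transmitter are shown because all 3 were low in the same libraries, FF1 and FF2. They lie on the minus strand, at chr14:32465860-32466159 for Chat, chr14:32464801-32465100 for Slc18a3 and chr17:54298985-54299284 for Slc5a7.
Chat: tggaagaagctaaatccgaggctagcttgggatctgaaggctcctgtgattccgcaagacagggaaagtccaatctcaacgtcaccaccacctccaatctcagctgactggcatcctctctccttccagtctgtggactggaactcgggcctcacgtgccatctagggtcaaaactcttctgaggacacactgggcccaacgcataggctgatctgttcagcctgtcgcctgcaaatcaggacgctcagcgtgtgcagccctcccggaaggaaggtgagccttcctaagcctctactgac
Slc18a3: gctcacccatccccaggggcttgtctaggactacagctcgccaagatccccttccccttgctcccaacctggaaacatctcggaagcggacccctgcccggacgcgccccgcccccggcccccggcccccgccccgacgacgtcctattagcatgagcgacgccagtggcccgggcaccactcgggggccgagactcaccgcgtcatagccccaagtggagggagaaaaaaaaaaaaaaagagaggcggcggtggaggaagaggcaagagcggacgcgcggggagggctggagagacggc
Slc5a7: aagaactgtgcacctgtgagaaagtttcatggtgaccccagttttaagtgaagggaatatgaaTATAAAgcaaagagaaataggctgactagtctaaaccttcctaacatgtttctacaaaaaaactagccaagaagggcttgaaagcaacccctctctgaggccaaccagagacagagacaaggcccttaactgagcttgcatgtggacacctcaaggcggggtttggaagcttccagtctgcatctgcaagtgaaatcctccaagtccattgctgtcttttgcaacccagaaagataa
The starts of Chat and Slc18a3 are 1059 bases apart. The capitals in Slc5a7 mark TATAAA, found in 4 of the 34 promoters of the set (of Gsx2, Meis2, Rgs9 and Slc5a7) and in 13.6% of all listed promoters. TGACGTCA, the full cAMP response element, was found in 0 of the 34 promoters of the set and in 1.79% of all listed promoters.

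Further genes of the same neurons were taken from lists outside the set. Of 22 other striatal projection neuron genes, 19 were tested, 0 rose and 1 fell (0.562% and 0.403% of all tested genes). Their median log2 fold change was -0.05, and it was -0.27 against FF4 alone and 0.03 without FF4. The gene that fell was Syndig1l, a synaptic membrane protein gene, at 12.5, 13.7 and 11.7 CPM in CAP1-KO, against 18.0, 17.7 and 18.2 CPM in FF1, FF2 and FF4 (log2 fold change -0.48, SE 0.07, limma adjusted p = 0.0319). The most abundant of that list, Cnr1 and Bcl11b, had log2 fold changes of -0.19 and -0.15 and did not pass. Of 8 other septal and cholinergic genes all were tested and 0 passed. Their median log2 fold change was 0.28, and it was -0.25 against FF4 alone and 0.50 without FF4. Trpc4, a cation channel of the lateral septum, had a log2 fold change of -0.16, and Ache, acetylcholinesterase, 0.12.

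Summed levels of some neighbouring regions also set FF4 apart from FF1 and FF2. The 11 subpallial progenitor and GABA neuron genes summed to 821, 742 and 740.3 CPM in CAP1-KO, against 601, 519 and 812 CPM in FF1, FF2 and FF4 (0 called either way, median log2 fold change 0.21). Gad1, an enzyme that makes GABA, and Dlx1, a homeobox factor of GABA neurons, had log2 fold changes of 0.48 and 0.30 and did not pass. The 14 dorsal pallium genes all had negative fold changes with 0 called (median -0.35), and the median was 0.11 against FF4 alone. Thalamic and hypothalamic genes summed to 98.3, 91.0 and 87.6 CPM in CAP1-KO, against 69.3, 69.4 and 93.7 CPM in FF1, FF2 and FF4. Of 6 tested 0 passed (median 0.68). Slc17a6 made up most of each sum and varied little, at 61.8 to 69.6 CPM in CAP1-KO and 60.0 to 63.4 CPM in Control. Tcf7l2, the next in level, measured 10.3, 9.41 and 7.96 CPM in CAP1-KO, against 3.56, 3.13 and 7.89 CPM in FF1, FF2 and FF4. Midbrain and hindbrain genes were low, with a sum, mostly of the serotonin synthesis gene Tph2, of 0.73 to 1.29 CPM in CAP1-KO and 1.09 to 1.18 CPM in Control and 0 of 9 genes at a level that could be tested. The part of dissected tissue content in the values of the set was not tested.

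**Figure D4:**
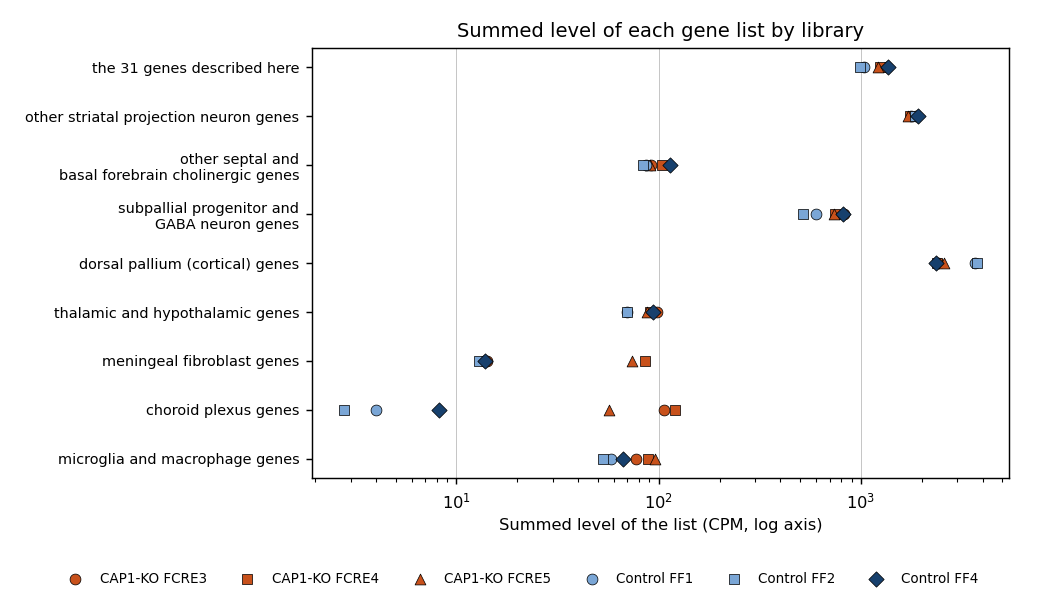
Summed level (CPM, log axis) of the 31 genes and of 8 other lists in each library; orange marks are CAP1-KO libraries, light blue marks FF1 and FF2, dark blue diamonds FF4. FF4 stands with the CAP1-KO libraries for subpallial, dorsal pallium, and thalamic and hypothalamic genes, and with FF1 and FF2 for the sums of meningeal genes (as does FCRE3) and choroid plexus genes (mostly Ttr in CAP1-KO).

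Sums of border tissue markers were led by few genes. Choroid plexus genes summed to 106, 121 and 56.9 CPM in CAP1-KO, against 4.01, 2.77 and 8.16 CPM in FF1, FF2 and FF4, and 1 of 5 tested rose, Ttr (median 1.01). Ttr, a thyroid hormone carrier, made up most of that sum in CAP1-KO, at 90.9, 104 and 47.0 CPM. Sostdc1, the next in level, measured 2.60, 2.80 and 1.78 CPM in CAP1-KO, against 1.44, 1.37 and 2.18 CPM in FF1, FF2 and FF4, so FF4 lay inside the CAP1-KO range. Of 6 tested meningeal fibroblast genes 0 passed (median 1.18).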

How the data were processed

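RNA was measured by poly(A)-selected, strand-specific sequencing, per the labels' protocols. STAR, edgeR and the builds GRCm38 and mm10 are named, per the submitters' processing notes, and which program counted reads is not stated there. Per the file headers, the deposited table holds log2 normalized counts of the 6 libraries. It also holds the authors' comparison: log2 fold change, mean log2 CPM, an F score, p-value and FDR. Columns were assigned to groups by the genotype in their names.

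The log2 values were turned back to linear values and a constant offset of 0.0584 CPM was taken off, after which 100% of values were within 0.01 of a whole read, with 31.2 to 37.3 reads per CPM. CPM + 1 was log2-transformed and genes averaging 1 CPM or more were tested with limma 3.58.1 (intensity trend, R 4.3.3), two-sided, Benjamini-Hochberg adjusted over 13885 genes, threshold 0.05. Folds on this scale understate changes of low genes. Figures used matplotlib 3.10.9. All replicate pairs differed beyond sampling noise. The fit was checked on simulated data.

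Genes were named by gene number through RefSeq (GRCm38.p6), because 6290 of 24819 symbols compared shared no name with it; among tested genes this held for 5 of 13614. Promoters are from RefSeq on GRCm38.p6.

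The 31 genes, the other lists and the tests were chosen with earlier results of these data known. The named genes are all 31, Cap1, Xist and Ddx3y as checks, and of each other list the genes past the threshold and up to 2 of highest level; some results under this rule are not reported here.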

Additional observations from a re-analysis of the deposited data

How the results depend on the processing

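No paired analysis was possible because the numbers in the column names are not the replicate numbers of the labels. There were 14 alternatives for the fit. The count of all genes called was 134 in the fit described. It was 26 with the Xist covariate, 88 where low genes were not filtered out, 55 against FF4 alone and 36 to 3922 with each library left out. Genes of the set called higher numbered 0 to 23 with each library left out, and genes called lower 0 to 2; the 0 came without FF1 and without FCRE5, and the 23 and the 2 without FF4. With the Xist covariate 0 were called lower. Taking Lhx8 by the symbol in the table, an alternative added after seeing the data, left both counts of calls in the set as they were.

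Of 406 fold changes of single genes under these alternatives, 357 kept sign and side of the threshold, 4 lost a call, 25 gained one (24 of these without FF4, and Tac1 against FF4 alone) and 21 changed sign. Tac1 without FF4 did both and is in the last 2 counts. Against FF4 alone the log2 fold change turned negative for Drd2 (-0.15), Isl1 (-0.27), Foxp1 (-0.014), Ebf1 (-0.54), Six3 (-0.073), Zfp503 (-0.35), Nkx2-1 (-0.14), Gbx1 (-0.076), Zic1 (-0.19), Zic2 (-0.21), Zic4 (-0.49), Slc18a3 (-0.22), Oprm1 (-0.43), Rgs9 (-0.10) and Rxrg (-0.65). With a library left out the values ran from -0.44 to 0.36 for Tac1, from -0.72 to 0.0017 for Ikzf1, from -0.033 to 0.074 for Meis2 and from -0.12 to 0.60 for Rxrg. Tac1 was 0.19 with the Xist covariate. The cause of these changes was not tested. The other size factors, total-read scaling, limma-voom on recovered reads, the pseudocount of 0.1 and the deposited log2 values changed no call and no sign in the set. Depth limits Gbx1, Gbx2 and Chat, with 1 to 3 reads in FF2.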

Other observations

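Penk and Tac1 were compared within each library after their values had been seen. The ratio of Penk to Tac1 levels was 2.90, 4.21 and 3.25 in FCRE3, FCRE4 and FCRE5, against 0.83 in FF1, 0.82 in FF2 and 1.08 in FF4. It averaged 3.45 ± 0.68 in CAP1-KO and 0.91 ± 0.15 in Control (SD, n = 3 each). In the level of Penk, FF4 was below every CAP1-KO library but nearer to them than to FF1 and FF2. In the Penk to Tac1 ratio FF4 stood with Control. The ratio of Adora2a to Drd1 was 1.68, 1.42 and 1.45 in the CAP1-KO libraries, against 0.62, 0.57 and 1.04 in FF1, FF2 and FF4, and the ratio of Drd2 to Drd1 was 0.59, 0.42 and 0.47 in CAP1-KO, against 0.24, 0.19 and 0.44 in FF1, FF2 and FF4. The ratio of Ppp1r1b to Foxp1 was 0.14, 0.15 and 0.15 in CAP1-KO, against 0.26, 0.24 and 0.21 in FF1, FF2 and FF4. These ratios were picked for their values and were not tested.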
